A study of Homo sapiens with 8 samples.

Results

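Long noncoding RNAs (lncRNAs) that A549 cells already make in quantity before treatment were followed through treatment with indisulam, SPHINX31 or both. A549 is a long-established line of human lung adenocarcinoma cells. Indisulam is a sulfonamide that recruits the splicing factor RBM39 to the ubiquitin ligase receptor DCAF15, so that the RBM39 protein is degraded. SPHINX31 inhibits SRPK1, a kinase that phosphorylates the SR proteins of the splicing machinery. The lncRNAs were chosen by their counts in the untreated cells. A gene annotated as lncRNA in GENCODE release 44 (GRCh38) was taken when it had at least 500 counts in each of the 2 untreated libraries, and the snoRNA host genes of the SNHG family and a few named transcripts (GAS5, ZFAS1, EPB41L4A-AS1, DANCR and CYP1B1-AS1) were left out. Of 60624 genes listed, 16745 were lncRNAs, 182 of these reached the threshold, 17 were left out by name, and 165 remained. All 165 passed the filter on low counts and were tested.

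The 8 libraries formed 4 groups of 2: untreated A549 cells, cells with indisulam, cells with SPHINX31, and cells with the combination. The study's methods give 0.5 μM of indisulam, SPHINX31 at 5 μM and a treatment of 24 h, whereas the labels of the libraries give 2 μM indisulam and 18 h. The libraries of a group were technical replicates, so that p-values measure only the spread between libraries and not between separate treatments. Polyadenylated RNA was sequenced, which lowers the recovery of noncoding transcripts without a poly(A) tail.

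lncRNAs are transcribed by RNA polymerase II and mostly capped, spliced and polyadenylated like mRNAs, but are not translated into a known protein. Many start head to head with a coding gene from a shared promoter, lie antisense to it, or carry a microRNA that is cut out of their introns or exons. Some act as RNA: NEAT1 builds paraspeckles, MALAT1 accumulates in nuclear speckles, and NORAD binds Pumilio proteins in the cytoplasm.

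In the RefSeq rows used, at least 10 of the 165 lncRNAs contain a mature microRNA on their own strand. These 10 hold 31 mature microRNAs from 18 hairpin genes. The rows left out part of the genome, so that hosts there were not counted. The sequences (GRCh38.p14) are shown for 5 of the 6 counted hosts that passed the threshold in the combination against SPHINX31 (all but MIR4435-2HG). Capitals mark the seed, bases 2 to 8, which pairs with target mRNAs. Gene counts measure the host transcript, not the mature microRNA. DLEU2 carries the microRNA pair that is lost with chromosome 13 deletions in chronic lymphocytic leukaemia, and both share a seed.
hsa-miR-15a-5p: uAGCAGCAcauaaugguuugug
hsa-miR-16-5p: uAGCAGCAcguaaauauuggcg
MIR100HG carries a cluster of hairpins whose main arms differ in seed, among them a member of the let-7 family.
hsa-let-7a-5p: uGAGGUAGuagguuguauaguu
hsa-miR-100-5p: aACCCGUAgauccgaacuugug
hsa-miR-125b-5p: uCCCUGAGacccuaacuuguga
MIR22HG, MIR31HG and MIR1915HG each carry a single hairpin.
hsa-miR-22-3p: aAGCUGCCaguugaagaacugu
hsa-miR-31-5p: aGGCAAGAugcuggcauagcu
hsa-miR-1915-3p: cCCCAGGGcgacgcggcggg

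Depth was between 51727369 and 63186989 counts on genes per library. The 165 lncRNAs held between 0.346% (indisulam replicate 2) and 0.442% (SPHINX31 replicate 2) of these counts. The identity of the cells was checked on a fixed marker list, and all 6 epithelial markers were present, from 25.4 CPM of EPCAM to 4103 CPM of KRT8 (CPM, counts scaled to a common TMM-adjusted library size). The defining leukocyte markers CD3E and MS4A1 were at 0 in every library and PTPRC was at most 0.0524 CPM. The fibroblast gene COL1A1 was between 3.23 and 4.65 CPM and the endothelial gene PECAM1 between 1.45 and 2.36 CPM, while COL3A1 and CDH5 were at most 0.0525 and 0.138 CPM. RBM39 mRNA itself had a log2 change of 1.13 (SE 0.0551, adjusted p = 4.41e-09) in the combination against SPHINX31, and SRPK1 mRNA of -0.19 (SE 0.0554, adjusted p = 0.0112).

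At the threshold lay PCBP1-AS1, LINC00173 and ENSG00000230074, with 501, 502 and 504 counts in the lower untreated library. Just outside it lay TP53TG1, CLN8-AS1 and MAP4K3-DT, with 498, 497 and 495 counts. The 165 genes had merged exons of 422 to 42249 bases (median 5454) and up to 14 exons in the canonical transcript (median 3). A symbol was given for 141 of them and an Ensembl identifier alone for 24. They were spread over the genome, with at most 18 on a single chromosome (12).

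Per kilobase of merged exon, the highest levels in untreated cells were 61.8 CPM per kb for LINC02582 and 57.0 for NORAD. ENSG00000269968, FGD5-AS1, LINC02870, PITPNA-AS1, ENSG00000261061, NEAT1, SIRLNT and AGAP2-AS1 followed, between 35.5 and 14.9 CPM per kb. The median of the 165 was 2.99 CPM per kb, so that a few transcripts dominated. NEAT1, NORAD and FGD5-AS1 together held 17.4% to 20.4% of the counts on the 165 lncRNAs in each library.

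Some of these counts cannot be assigned to the lncRNA with certainty. ENSG00000261061 lies wholly within exons of CENPN on the same strand, and AGAP2-AS1 shares 91.9% of its exon bases with OS9 on the same strand. ENSG00000269968 lies wholly inside exons of the abundant GAPDH on the opposite strand, and its counts were 0.114% to 0.184% of those of GAPDH in each library. In all, 5 of the 165 shared at least 20% of their exon bases with a coding gene on the same strand, ENSG00000230551 and LINC01089 among them, and 15 with a coding gene on the opposite strand. The libraries were stranded, while the strand setting of the counting is not given in the sources used here.

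Since the untreated libraries chose the genes, the comparisons against untreated cells are given as description. The tested comparisons are the combination against SPHINX31, which shows indisulam in cells that all had SPHINX31, and the combination against indisulam, which shows SPHINX31 in cells that all had indisulam. Neither sets an untreated library against another group. The spread was estimated from all 8 libraries, the untreated ones included, so that the p-values draw on them. The rule asks for high counts in cells without indisulam, so that the split between higher and lower members is also given for other ways of choosing them.

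Indisulam on a background of SPHINX31 changed the level of most of these lncRNAs, in both directions. DLEU2, DNAH10OS and ZBED5-AS1 fell to between 0.20 and 0.25 of their level, whereas ENSG00000230551 rose 2.47-fold. Of the 165, 102 passed the threshold (adjusted p under 0.05, quasi-likelihood test of edgeR, adjusted by Benjamini-Hochberg over all 18661 genes tested), 31 higher and 71 lower with indisulam. Among all genes tested, 49.9% passed, 23.4% higher and 26.5% lower. Among the 9563 coding genes that reached the same count threshold, 59.4% passed, 26.05% higher and 33.4% lower. The share of these lncRNAs that passed, 61.8%, was close to this. The coding genes share the count threshold but were not matched in level. The median absolute log2 fold change was 0.36 in the lncRNAs and 0.21 in these coding genes.

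The surplus of falls depended on how the lncRNAs were chosen. With 128 lncRNAs chosen by the same threshold in the indisulam libraries, which are not part of this comparison, 40 were higher and 37 lower. With 160 chosen by a mean of at least 500 counts over all 8 libraries, 40 were higher and 55 lower. Both choices were made after the data were seen. Coding genes chosen by the indisulam libraries were 27.6% higher and 31.4% lower. The individual falls and rises below do not depend on the choice of list, as the test was made on all genes together.

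The largest fall was that of DLEU2 (ENSG00000231607, chromosome 13, 49956670 to 50125720, minus strand), the host of miR-15a and miR-16. It was at 9.60 and 11.6 CPM in the SPHINX31 libraries and at 2.29 and 1.96 CPM in the combination libraries. The untreated libraries had 10.95 and 11.7 CPM and the indisulam libraries 3.54 and 2.83 CPM. All 4 libraries with indisulam lay below all 4 without it, and the log2 fold change was -2.32 (SE 0.136, adjusted p = 2.34e-08). DLEU2 overlaps TRIM13 on the opposite strand, whose log2 fold change was 0.29 (adjusted p = 0.0021).

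DNAH10OS, an opposite-strand transcript of the dynein gene DNAH10 on chromosome 12, had 12.6 and 11.8 CPM with SPHINX31 and 2.80 and 2.50 CPM with the combination. It fell by 2.198 on the log2 scale (SE 0.0986, adjusted p = 2.31e-09). DNAH10 was itself at 0.602 CPM in untreated cells (mean) and CCDC92, which overlaps the locus on the same strand, had a log2 fold change of -0.86. ZBED5-AS1, which starts opposite ZBED5 on chromosome 11, had 10.8 and 9.62 CPM with SPHINX31 and 2.62 and 2.48 CPM with the combination, a log2 fold change of -1.999 (SE 0.107). For both transcripts the libraries with and without indisulam formed 2 groups that did not overlap.

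CCDC18-AS1, ENSG00000187185 and ZFAND2A-DT had log2 fold changes of -1.78, -1.67 and -1.67. LUCAT1, a stress-responsive transcript first described in smokers' airway cells, had 62.4 and 64.7 CPM with SPHINX31 and 23.6 and 18.5 CPM with the combination, a log2 fold change of -1.60 (SE 0.0958). ZC3H12A-DT, LINC00707, CASC19 and JPX followed with -1.51, -1.47, -1.47 and -1.27. In all, 19 of the 165 fell by at least 1 on the log2 scale and 4 rose by as much. Among all 18661 genes tested, 1193 fell and 914 rose by as much. Among the 9563 coding genes at the count threshold, 244 fell and 23 rose by as much.

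Among the rises, ENSG00000230551 had 6.11 and 7.79 CPM with SPHINX31 and 19.4 and 15.0 CPM with the combination, a log2 fold change of 1.30 (SE 0.155). It shares 48.6% of its exon bases with CSNK1A1 on the same strand, a casein kinase gene whose own log2 fold change was -0.36, so that the rise cannot be placed on the lncRNA with certainty. LINC00641, LINC03061 and MIR1915HG had log2 fold changes of 1.05, 1.00 and 0.97.

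3 neighbouring transcripts on the minus strand of chromosome 1 at the brevican gene BCAN rose together. BCAN-AS1 (156637783 to 156641004), ENSG00000272405 (156641666 to 156644887) and BCAN-AS2 (156646507 to 156661424) lie 661 and 1619 bases apart. Their log2 fold changes were 0.95, 0.92 and 0.65, each with an adjusted p under 0.05. Gene counts do not show whether they are separate transcripts, and BCAN itself was too low to be tested.

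**Figure D1:**
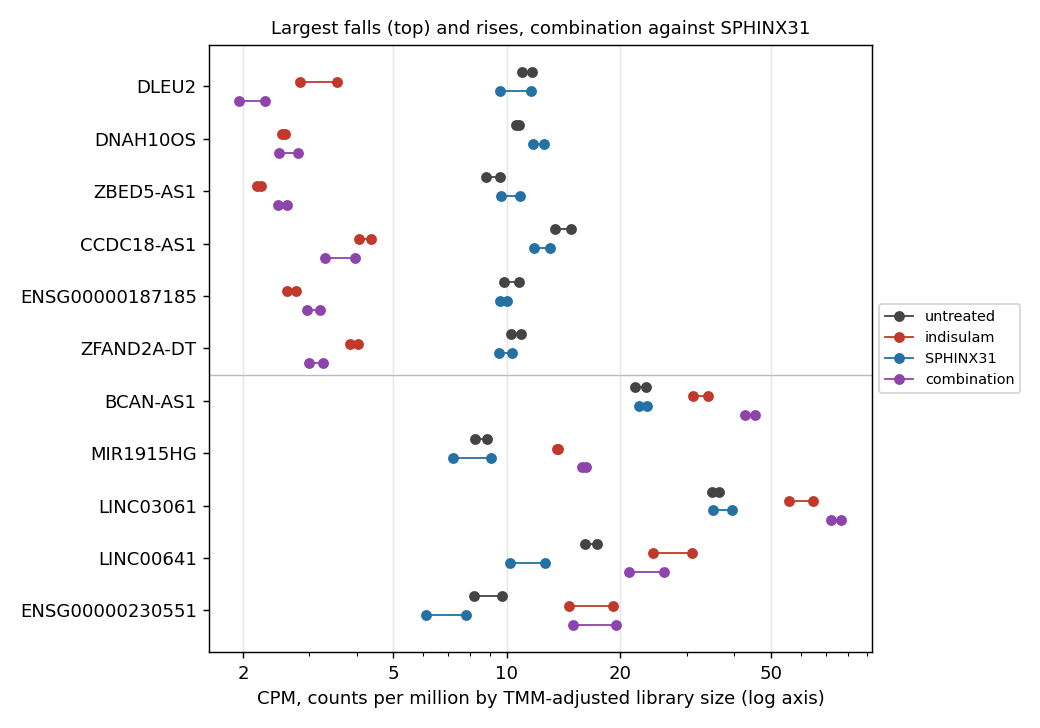
CPM (log axis) in each library for the 6 lncRNAs with the largest falls (upper rows) and 5 of those with the largest rises (lower rows) in the combination against SPHINX31. Each point is a library and a line joins the 2 libraries of a group. For DLEU2 the libraries with indisulam lie between 1.96 and 3.54 CPM and those without it between 9.60 and 11.7 CPM.

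The values of indisulam given without SPHINX31 are set beside these as description. The comparison of indisulam with untreated cells shares no library with that of the combination and SPHINX31. In it, 105 of the 165 passed the threshold, 28 higher and 77 lower, where 43.7% of all genes tested passed, 20.1% higher and 23.5% lower. Since the untreated libraries chose the genes, nothing is read from these counts. Of the 102 that passed on SPHINX31, 91 also passed without it (89.2% of the former and 86.7% of the latter). These were 69 lower in both, 22 higher in both and none in opposite directions. Among all genes tested, 6776 of the 9314 that passed on SPHINX31 also passed without it. Over all 165, 154 had the same sign (93.3%), against 84.4% of all genes tested.

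**Figure D2:**
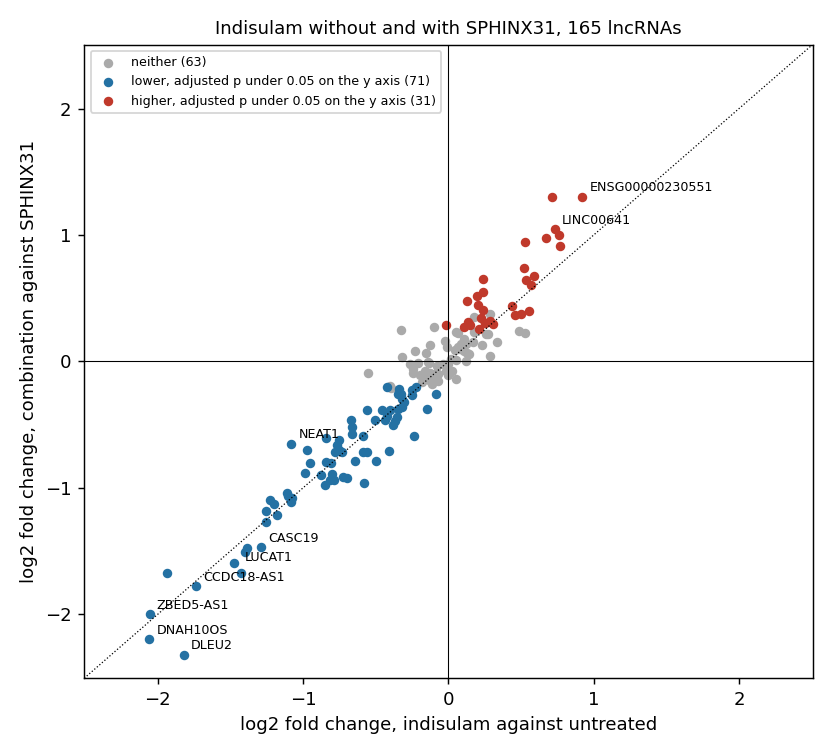
Log2 fold change of each of the 165 lncRNAs with indisulam against untreated cells (x axis) and with the combination against SPHINX31 (y axis), which share no library. Colours mark the 71 lower and 31 higher in the y-axis comparison, and the dotted line marks equal values. 154 points lie in the lower left or upper right.

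Exon number went with the direction of change. The 19 lncRNAs without any annotated intron included 9 that were higher and 2 that were lower in the combination against SPHINX31, with a median log2 fold change of 0.24. Those that rose included BCAN-AS1, ENSG00000272405, LINC01963, GABPB1-IT1, LINC00294, ENSG00000261578, ENSG00000278266 and LINC00938, and those that fell were ENSG00000278730 and HCG11. By contrast, the 144 lncRNAs spliced in their canonical transcript included 22 higher and 68 lower, with a median of -0.16. In the 2 that are spliced only in other transcripts, NEAT1 was lower and MALAT1 did not pass.

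The share of lower members rose with the number of exons in the canonical transcript. It was 14.3% of 21 with a single exon, 32.5% of 40 with 2 exons, 45.7% of 35 with 3, 55.9% of 34 with 4 to 5, and 57.1% of 35 with 6 or more. The medians were 0.24, -0.06, -0.14, -0.38 and -0.36 on the log2 scale. When the lncRNAs were chosen by the indisulam libraries, genes without an annotated intron were 11 higher and 2 lower and the others 29 higher and 35 lower. The coding genes of the same threshold showed the same order, with 27.8% higher and 20.4% lower among 108 without an intron, and 26.0% higher and 33.5% lower among 9455 with introns. Single-exon lncRNAs below the threshold, 763 in number, were 33.0% higher and 7.86% lower. These shares are descriptions, and exon number also goes with length and with the chance of overlapping another gene. Reads outside any annotated feature made up 5.88% and 4.87% of the reads of the combination libraries and 3.67% and 3.93% of those of the SPHINX31 libraries, and their part in the rises was not tested.

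The 3' splice sites of the largest falls and rises are shown to give the sequence that the splicing machinery reads at these introns. Each line holds the last 20 bases of an intron and the first 3 of the next exon (GRCh38, strand of the gene), with the AG at the intron's end in capitals. The first introns of the 4 spliced transcripts with the largest falls ended as follows.
DLEU2: acatgacatttttattgcAGgtt
DNAH10OS: ctccttttcatcaccaacAGgga
ZBED5-AS1: ctttttttttttccccacAGcta
CCDC18-AS1: tttttttttggtcttttcAGtta
The first introns of the 4 spliced transcripts with the largest rises ended as follows.
ENSG00000230551: ccctcccctttttttttaAGgaa
LINC00641: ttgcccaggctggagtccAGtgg
LINC03061: ggggggcctttctcttccAGcct
MIR1915HG: atacttccctctctttgcAGatt
Pyrimidines (C or T) made up 55%, 70%, 85% and 80% of the 20 intronic bases in the former and 85%, 50%, 60% and 75% in the latter. Over all introns of canonical transcripts the median was 70% in the 68 lncRNAs that fell, in the 22 that rose and in the 54 that did not pass, and also in all 37154 lncRNA introns. The median intron was 5959 bases in those that fell, 3426 in those that rose and 5463 in the rest.

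Divergent lncRNAs and the coding genes that start within 1000 bases of them on the other strand are compared next. Of 51 such pairs in which both were tested, the lncRNA was lower in 21 in the combination against SPHINX31. The coding partner was lower in 7 of these, higher in 3 and did not pass in 11. Of the 7 pairs with a higher lncRNA, the partner was higher in 3, lower in 1 and did not pass in 3. Over all 51 pairs the partner was lower in 15 and higher in 13, and of all coding genes at the count threshold 33.4% were lower, so that partners of lower lncRNAs were lower about as often as coding genes at large. Of 54 pairs in which the lncRNA lies antisense to a coding gene (47 lncRNAs), the lncRNA was lower in 20, and the coding gene was then lower in 11, higher in 3 and did not pass in 6. With a higher lncRNA, in 11 of these pairs, the coding gene was higher in 2, lower in 3 and did not pass in 6. Over all 54 pairs it was lower in 19 and higher in 11. These are descriptions, and the divergent and antisense pairs were not tested against each other.

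ZBED5-AS1 had a log2 fold change of -1.999 and ZBED5, across their start sites, of 0.16 (SE 0.0779, adjusted p = 0.109). ZC3H12A-DT had -1.51 and ZC3H12A, which encodes the RNase Regnase-1, had -0.14 (SE 0.0723, adjusted p = 0.112). RAB30-DT had -1.11 and RAB30, a small GTPase of the Golgi, had 0.25 (adjusted p = 0.0321), so that these passed in opposite directions. WARS2-AS1 and WARS2 were in opposite directions as well, at -0.47 and 0.50. SLC12A2-DT and the sodium-potassium-chloride cotransporter gene SLC12A2 fell together, at -0.72 and -1.11, and the COX10-DT and COX10 pair rose together, at 0.60 and 0.24.

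**Figure D3:**
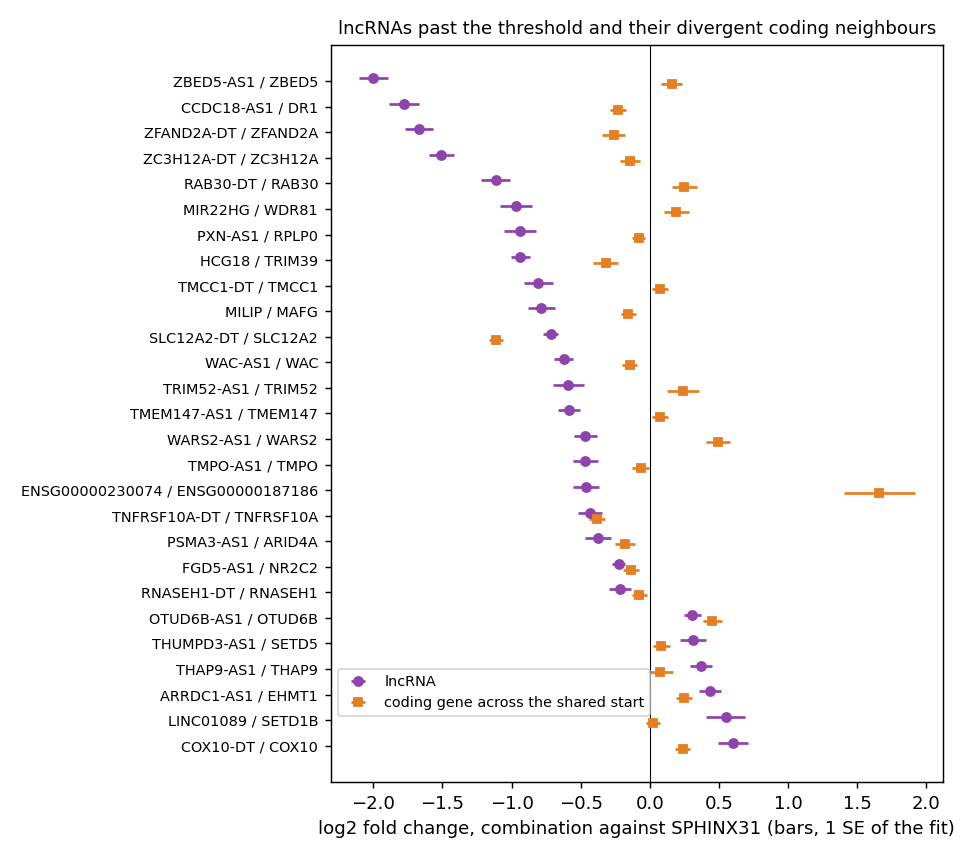
Log2 fold change with 1 SE in the combination against SPHINX31 for 27 lncRNAs past the threshold with a tested divergent neighbour (circles) and for that coding gene (squares), which starts within 1000 bases on the opposite strand. The circles run from -1.999 to 0.60, while most squares lie nearer to 0, with SLC12A2 at -1.11 and the partner of ENSG00000230074 at 1.66 as the farthest.

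Among the microRNA hosts, 8 from a list of 10 were among the 165. Of these, 2 were higher and 4 lower in the combination against SPHINX31, where 18.8% of all 165 were higher and 43.0% lower. DLEU2 is described above. MIR100HG was at 41.3 and 41.3 CPM with SPHINX31 and at 22.5 and 21.2 CPM with the combination, a log2 change of -0.92 (SE 0.0624, adjusted p = 8.52e-08). MIR22HG had -0.96 and MIR31HG -0.30. MIR1915HG and MIR4435-2HG were higher, at 0.97 and 0.29. PVT1 (-0.10, adjusted p = 0.304) and FTX (-0.09, adjusted p = 0.68) did not pass. PVT1 lay outside the rows searched for mature microRNAs and is not in the count of hosts given with the sequences. In the proteins that process microRNAs, 10 genes were tested, of which 3 were higher and 1, the export factor XPO5, was lower at -0.69 (SE 0.0537). Of all coding genes at the count threshold, 26.05% were higher and 33.4% lower.

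Of the nuclear body scaffolds, NEAT1 passed the threshold and MALAT1 did not, and they were not tested against each other. NEAT1 had 313 and 387 CPM with SPHINX31 and 266 and 180 CPM with the combination, a log2 change of -0.65 (SE 0.164, adjusted p = 0.00491). Its replicates were far apart, with 196 and 140 CPM with indisulam, and the call was lost without SPHINX31 replicate 2 or combination replicate 2, where the log2 fold change ranged from -0.95 to -0.40 over all libraries left out. NEAT1 was also the single transcript of a p53-linked list of 12 among the 165. MALAT1 had 116 and 145 CPM with SPHINX31 and 211 and 122 CPM with the combination, values that overlap, and a log2 change of 0.35 (SE 0.186, adjusted p = 0.133). Of 16 genes for paraspeckle proteins, which assemble on NEAT1, 4 were higher and 7 lower, from DAZAP1 at -0.58 to FAM98A at 0.34. Of 12 genes for nuclear speckle proteins, all 12 were higher, from RNPS1 at 0.29 to SRSF1 at 0.91. Of 20 genes for the nuclear RNA exosome and its adaptors, which degrade many noncoding transcripts, 5 were higher and 7 lower. They ran from EXOSC8 at -0.65 to C1D at 0.50. For scale, 26.05% of all coding genes at the count threshold were higher and 33.4% lower in this comparison.

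NORAD, which holds Pumilio proteins through repeated recognition elements, varied little. It had 316 and 322 CPM with SPHINX31 and 334 and 356 CPM with the combination, a log2 change of 0.11 (SE 0.0481, adjusted p = 0.0672). The element TGTANATA occurs 15 times in its transcript of 5401 bases, counted on the transcript's strand. HCG11 on chromosome 6, which is a related sequence, holds 16 in 5696 bases, and 29 of the 165 lncRNAs hold at least 1. The first element is shown with its flanks and in capitals, and is the same run of bases in both.
NORAD and HCG11: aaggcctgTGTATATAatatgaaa
The transcripts share 83 words of 75 bases, 1.56% of those in NORAD. Reads recorded as not unique are in the counts of neither gene. Whether the other reads from stretches of near identity were placed on the right gene was not tested. HCG11 was at 17.3 and 16.8 CPM in untreated cells and its log2 change was -0.20 (SE 0.0783, adjusted p = 0.0461). In the combination against indisulam the counts in the protein lists were small. There, 2 of 12 nuclear speckle genes were higher. Lower were 2 of 16 paraspeckle genes, 1 of 20 exosome genes and 1 of 10 microRNA-processing genes. Of 4 genes for NORAD-binding proteins, RBMX was lower (-0.28, adjusted p = 0.0038). Of all genes tested, 7.5% passed in this comparison.

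Of 5 cytoplasmic or translation-linked transcripts, 1 (MIR4435-2HG) was higher and 2 were lower. OIP5-AS1, known as cyrano, was lower by a small amount (-0.27, SE 0.0489, adjusted p = 4.92e-04). LINC00467 fell by 0.66 on the log2 scale (SE 0.0796, adjusted p = 1.59e-05) and CHASERR did not pass (-0.11, SE 0.076, adjusted p = 0.264). Of the transcripts of the X inactivation centre, JPX had 23.0 and 21.1 CPM with SPHINX31 and 9.32 and 8.93 CPM with the combination, a log2 fold change of -1.27 (SE 0.0854). A fixed list of 25 cancer-associated lncRNAs had 7 among the 165. Of these, 5 were lower (DLEU2, LUCAT1, CASC19, LINC00511 and TMPO-AS1) and none was higher, while PVT1 and CRNDE did not pass. Over all 165, 18.8% were higher and 43.0% lower.

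SPHINX31 on a background of indisulam changed far fewer of these lncRNAs. LINC00511 rose most and FMNL1-DT fell most. Of the 165, 25 passed the threshold, 16 higher and 9 lower, where 7.5% of all genes tested passed, 3.17% higher and 4.32% lower. Among coding genes of the same count threshold, 11.4% passed, 3.73% higher and 7.63% lower. The 25 made up 15.2% of the 165, and no member moved by 1 or more on the log2 scale. Chosen instead by the SPHINX31 libraries, also a choice made after the data were seen, 27 of 151 lncRNAs passed, 21 higher and 6 lower. With scaling by total counts alone 26 passed, 21 higher and 5 lower. Without combination replicate 1, 16 passed, and without combination replicate 2, 8 passed. Without indisulam replicate 2, 18 passed, 8 higher and 10 lower.

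LINC00511 (ENSG00000227036, chromosome 17, 72290091 to 72640472, minus strand), a transcript studied in breast and lung cancer, had 14.9 and 15.3 CPM with indisulam and 24.2 and 29.7 CPM with the combination. It had 19.5 and 19.8 CPM in untreated cells and 40.3 and 36.1 CPM with SPHINX31 alone. Its log2 fold change with SPHINX31 was 0.83 (SE 0.0917, adjusted p = 2.06e-04) in the presence of indisulam and 0.96 (SE 0.0881) against untreated cells. LINC00511 thus moved in opposite directions with the compounds, since it fell by 0.51 on the log2 scale in the combination against SPHINX31 (SE 0.0865, adjusted p = 3.04e-04).

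The promoter of LINC00511 (RefSeq, GRCh38.p14, chr17:72640423-72640722, minus strand, 250 bases before to 50 after the start) is shown for a motif match. Of the 108 lncRNAs with a promoter in the set used, LINC00511 alone had the motif TTGCGTG. This holds the core of the element bound by the aryl hydrocarbon receptor. Motifs were searched on both strands, and this one was chosen after the values were seen. Capitals mark this motif, on the opposite strand and across the start, and a GC box (GGGCGG) farther upstream. The motif occurs in 1.16% of all 35116 promoters of this length and the GC box in 45.0%.
LINC00511 promoter: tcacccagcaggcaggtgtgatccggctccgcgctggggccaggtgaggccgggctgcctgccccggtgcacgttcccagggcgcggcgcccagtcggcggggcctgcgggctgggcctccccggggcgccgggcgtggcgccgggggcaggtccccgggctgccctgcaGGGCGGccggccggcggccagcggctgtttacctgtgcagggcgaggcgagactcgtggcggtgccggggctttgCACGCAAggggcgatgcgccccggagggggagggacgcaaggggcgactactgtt
A match is a run of letters and no measurement of binding.

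FMNL1-DT, which starts opposite the formin gene FMNL1 on chromosome 17, had 30.4 and 27.2 CPM with indisulam and 17.1 and 13.1 CPM with the combination. The log2 fold change came to -0.93 (SE 0.112, adjusted p = 3.59e-04), while that of FMNL1 was -0.14. It had 20.2 and 21.1 CPM in untreated cells and 11.6 and 13.9 CPM with SPHINX31, so that it was lower with SPHINX31 on either background. TMEM147-AS1 had 27.9 and 26.2 CPM with indisulam and 19.6 and 16.7 CPM with the combination, a log2 change of -0.58 (SE 0.0787, adjusted p = 8.78e-04). LINC00173, DLEU2, LINC01089 and ENSG00000261578 had -0.64, -0.59, -0.48 and -0.40. LINC01089 shares 41.7% of its exon bases with RHOF on the same strand. Its call here was lost with total-count scaling, among other alternatives, and its log2 fold change ranged from -0.74 to -0.25 with a library left out.

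LINP1, a transcript described in the joining of broken DNA ends, had 11.5 and 11.03 CPM with indisulam and 15.8 and 16.1 CPM with the combination, a log2 change of 0.50 (SE 0.0725, adjusted p = 0.00127). LINC02035, BCAN-AS1, ZNF407-AS1 and CASC19 had 0.45, 0.44, 0.40 and 0.39. NORAD was higher by 0.17 (SE 0.0482, adjusted p = 0.0442), a call that was lost in 7 of the 12 alternatives run on named genes.

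SPHINX31 against untreated cells, which shares no library with this comparison, had 27 of the 165 past the threshold, 15 higher and 12 lower, where 8.61% of all genes tested passed, 4.94% higher and 3.67% lower. With scaling by total counts alone they were 24 higher and 10 lower. Without untreated replicate 1, untreated replicate 2 or SPHINX31 replicate 1, 7 of the 165 passed in each case (4.24%). These counts, and the overlap that rests on them, are description only. Of the 25 that passed on indisulam, 14 also passed here (56.0% of the former and 51.9% of the latter). These were 8 higher and 6 lower in both and none in opposite directions. Among all genes tested, 640 of the 1399 that passed on indisulam also passed here. Over all 165, 124 had the same sign (75.2%), against 66.9% of all genes tested. LINC00511 and CASC19, at 0.96 and 0.57, were the largest rises and LINC01089, LINC00173 and FMNL1-DT, at -0.79, -0.71 and -0.69, the largest falls.

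**Figure D4:**
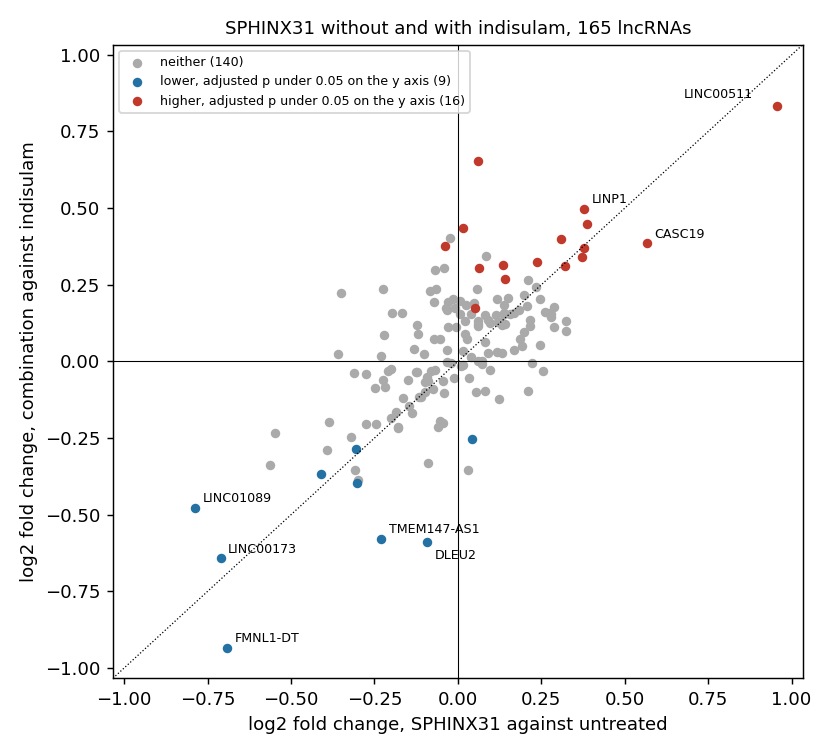
Log2 fold change of each of the 165 lncRNAs with SPHINX31 against untreated cells (x axis) and with the combination against indisulam (y axis), which share no library. Colours mark the 9 lower and 16 higher in the y-axis comparison. LINC00511 lies farthest up on both axes, at 0.96 and 0.83, and FMNL1-DT lowest on the y axis, at -0.93.

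Of the 165 lncRNAs, 20 passed in both tested comparisons, 82 with indisulam on SPHINX31 alone, 5 with SPHINX31 on indisulam alone and 58 in neither. Among all genes tested, 49.9% passed with indisulam on SPHINX31 and 7.5% with SPHINX31 on indisulam. How many of all genes passed in both, and in which directions, was not counted, so nothing particular to these lncRNAs is read from the overlap. Of the 20, 12 moved in the same direction with either compound, among them DLEU2 and LINC00173 downwards and BCAN-AS1 and LINP1 upwards. The other 8 moved in opposite directions, among them CASC19 (-1.47 with indisulam and 0.39 with SPHINX31), DLGAP1-AS2 (-1.21 and 0.34) and LINC00511. The calls with SPHINX31 were lost in 5 of the 12 alternatives for DLEU2, in 5 for LINC00173, in 7 for DLGAP1-AS2 and in 2 for CASC19, and in none for BCAN-AS1, LINP1 and LINC00511. The replicate block was among those lost for DLEU2, LINC00173 and DLGAP1-AS2. Both comparisons share the combination libraries, so that these counts are given side by side and not as support for each other.

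The combination against untreated cells had 107 of the 165 past the threshold, 39 higher and 68 lower, where 50% of all genes tested passed, 23.8% higher and 26.3% lower. Chosen by the indisulam libraries, 128 lncRNAs gave 47 higher and 34 lower, so that the split turned with the choice of libraries. Coding genes chosen in the same way were 27.7% higher and 30.6% lower. DLEU2 was lowest at -2.41 (SE 0.135) and LINC03061 was at 1.07 (SE 0.0761). None of the 165 had an interaction of indisulam and SPHINX31 past the threshold in edgeR's test, where 0% of all genes passed. At an unadjusted p under 0.05 there were 19 of the 165, beside 1584 of all 18661 genes tested and 1002 of the 9563 coding genes at the count threshold. DESeq2, an alternative test, called 1 of the 165, and its share of all genes is not given here.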

How the data were processed

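RNA from A549 cells was sequenced as paired-end reads of 150 bases from stranded libraries of polyadenylated RNA, with 4 groups of 2 technical replicates. The deposited values are raw counts of reads per Ensembl gene, made by the authors. The submitters' processing notes name HISAT2 2.2.1, HTSeq and GRCh38. The version of HTSeq, its strand setting and the annotation are not given in the sources used here. Lines that name no gene (no feature, ambiguous, not unique) were left out of library sizes, and 83.0% to 86.0% of the recorded reads were on genes.

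Counts were filtered with filterByExpr, which left 18661 genes, scaled by TMM and tested in R 4.3.3 with edgeR 4.0.16 (quasi-likelihood, all 8 libraries, 4 residual degrees of freedom). The Benjamini-Hochberg adjustment ran over all tested genes, with a threshold of 0.05. DESeq2 1.42.0 was an alternative. The test was checked on simulated data. The common coefficient of variation between replicates came to 0.0491. No library was a copy of another in its group, with a chi-square per degree of freedom from 6.59 to 10.7. A standard error covers counting error and this spread.

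The lncRNAs and gene lists were chosen with earlier results of these data known. Named are the 10 highest per kb of merged exon in untreated cells, up to 6 of the largest rises and falls past the threshold in each comparison, the 3 genes on each side of the count threshold, members of the fixed lists, and their coding neighbours. LINC01963, LINC00294, RAB30-DT and other transcripts named beside a count fall outside this rule and were picked after their values were seen. Gene models were from GENCODE release 44, in which 60370 of 60624 listed genes were found. Further steps used Python 3.11.15, numpy 2.4.6 and pandas 2.3.3. Alternatives in scaling, filter, test, block, GC content, libraries and choice of members were run as given in the closing section. Some genes that the rule names are not reported here.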

Additional observations from a re-analysis of the deposited data

Results flagged for a closer look

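Reads on no annotated feature, which enter no comparison here, were more frequent with indisulam than in untreated cells, where they made up 3.94% and 4.34% of the recorded reads. They made up 5.48% and 4.49% in the indisulam libraries and 5.88% and 4.87% in the combination libraries, so that each lay above both untreated libraries. The SPHINX31 libraries had 3.67% and 3.93%. The part of such reads in the levels of lncRNAs was not tested.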

How the results depend on the processing

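The share of the 165 lncRNAs past the threshold was 61.8% in the combination against SPHINX31 and stayed within 1.5 times of this in every alternative run: RLE or total-count scaling, DESeq2, looser and stricter filters, only the libraries compared, an adjusted p under 0.1, replicate blocks, GC offsets in 50 bins, thresholds of 250 or 1000 counts, other libraries to choose the members, and each library left out (56.4% to 63.03%). The same held for indisulam (53.9% to 64.9% with a library left out) and the combination (56.4% to 67.9%) against untreated cells. In the combination against indisulam, 15.2% fell to between 4.85% and 16.4% with a library left out, lowest without combination replicate 2 (8 of 165) and at 9.70% without combination replicate 1. In SPHINX31 against untreated cells, 16.4% fell to between 4.24% and 18.2%, with 4.24% without either untreated library or SPHINX31 replicate 1, and was 25.5% at an adjusted p under 0.1. A lone library was then assumed to vary like those of the other groups. For the interaction, 0% became 0.606% (1 of 165) with DESeq2 and 2.42% with every gene with a count kept (4, among them NEAT1, ENSG00000269968 and BCAN-AS1), and it stayed at 0% with each library left out. For the interaction, the shares of all genes with DESeq2 and with every gene with a count kept are not given here. The cause of all these shifts was not tested.

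Same-numbered libraries did not deviate alike in all groups. Over 5858 genes their deviations had correlations of -0.663 (untreated and indisulam), -0.556 (indisulam and SPHINX31) and 0.493 (untreated and SPHINX31). Those with the combination lay between 0.0403 and 0.208. The main test has no term for such shared deviations, and their source was not tested. With the replicate block 60.6% (100 of 165) passed in the combination against SPHINX31 and 12.1% (20) in the combination against indisulam. The block gave 63.6% for indisulam, 12.7% for SPHINX31 and 63.6% for the combination against untreated cells, and 0% for the interaction. With the indisulam numbers exchanged, 66.7% and 18.8% passed in the first pair of comparisons.

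Of the 38 named lncRNAs past the threshold in the combination against SPHINX31, 33 passed under all 12 alternatives run on single genes, and none changed sign. Of 19 in the combination against indisulam, 6 did (among them LINC00511, LINP1, BCAN-AS1, FMNL1-DT and TMEM147-AS1), and the other 13 lost the call under at least 1 of them. With total-count scaling, 21 were higher and 5 lower in that comparison, in place of 16 and 9.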

Other observations

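The threshold in untreated cells leaves out lncRNAs that reached it only with treatment. At least 500 counts in each library of a group were reached by 10 further lncRNAs with indisulam, by 12 with SPHINX31 and by 31 with the combination. Of the 165, 118 still reached it with indisulam, 139 with SPHINX31 and 128 with the combination. These groups of libraries differ in depth, and counts were not scaled for this.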
